A study of Mus musculus with 4 samples.

Results

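A set of 5 genes of extracellular adenosine and nicotinamide adenine dinucleotide (NAD) metabolism were followed in RNA sequencing libraries of mouse spleen T cells: Cd38, Entpd1 (CD39), Nt5e (CD73), Ada (adenosine deaminase) and Dpp4 (CD26). They were taken by gene symbol from a table of 17039 genes, in which all 5 were found, and all 5 passed the filter on low counts that kept 12887 genes. The libraries came from 4 C57BL/6 mice. Each group of 2 mice was given, by intramuscular injection, a recombinant adeno-associated virus that either expressed interleukin-27 (AAV-IL-27) or served as control (AAV-ctrl), and T cells were isolated from the spleen by magnetic separation after about a month. The library titles name CD8 cells, whereas the cell type label names splenic T cells. The promoter that drove interleukin-27, the viral dose and the age and sex of the mice are not given in the sources used here. Libraries I1 and I3 are AAV-IL-27 replicates 1 and 3 of the labels, and C1 and C3 are AAV-ctrl replicates 1 and 3.

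Extracellular ATP, released by stressed or activated cells, acts on P2 receptors of neighbouring cells. CD39 removes phosphates from ATP and ADP to leave AMP, and CD73 then cleaves AMP to adenosine, which restrains T cells mainly through the receptor encoded by Adora2a and cyclic AMP. Adenosine deaminase converts adenosine to inosine, inside cells and, bound to CD26 in humans, at the surface. CD38 consumes NAD to form ADP-ribose and cyclic ADP-ribose, and its product can feed AMP to CD73 by a route that does not need CD39. CD26 is a serine peptidase that trims dipeptides from the ends of chemokines and other peptides and also costimulates T cells.

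Entpd1 and Ada rose about equally in AAV-IL-27, Nt5e fell, and no change in Cd38 or Dpp4 was found. The fitted level of Entpd1 was 2.17-fold that of AAV-ctrl (95% confidence interval 1.93 to 2.43) and that of Ada 2.32-fold (1.92 to 2.79). Nt5e was 1.94-fold higher in AAV-ctrl. By the quasi-likelihood test of edgeR, adjusted over all 12887 genes, 3 of the 5 passed the threshold of 0.05 (2 higher, 1 lower). Of all tested genes 39.0% passed (21.3% higher and 17.7% lower), so a count of 3 among 5 by itself does not set these genes apart. No overlap between groups was seen for these 3, as for 71.5% of all tested genes, and the groups of the other 2 overlapped. The calls over all genes numbered 2745 higher and 2278 lower with the TMM scaling used here. They were 2362 and 2979 with upper-quartile factors, 2363 and 2975 with library size alone, and 1276 and 3685 when libraries were scaled to a list of T cell genes, under which the all-gene median of log2 fold changes went from -0.0053 to -0.20. DESeq2 called 2004 higher and 1239 lower, and 1646 were higher and 989 lower without C1, against 1690 and 1053 without C3. In these bulk libraries, fewer cells of a type that carries a transcript and less of it per cell cannot be told apart.

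**Figure D1:**
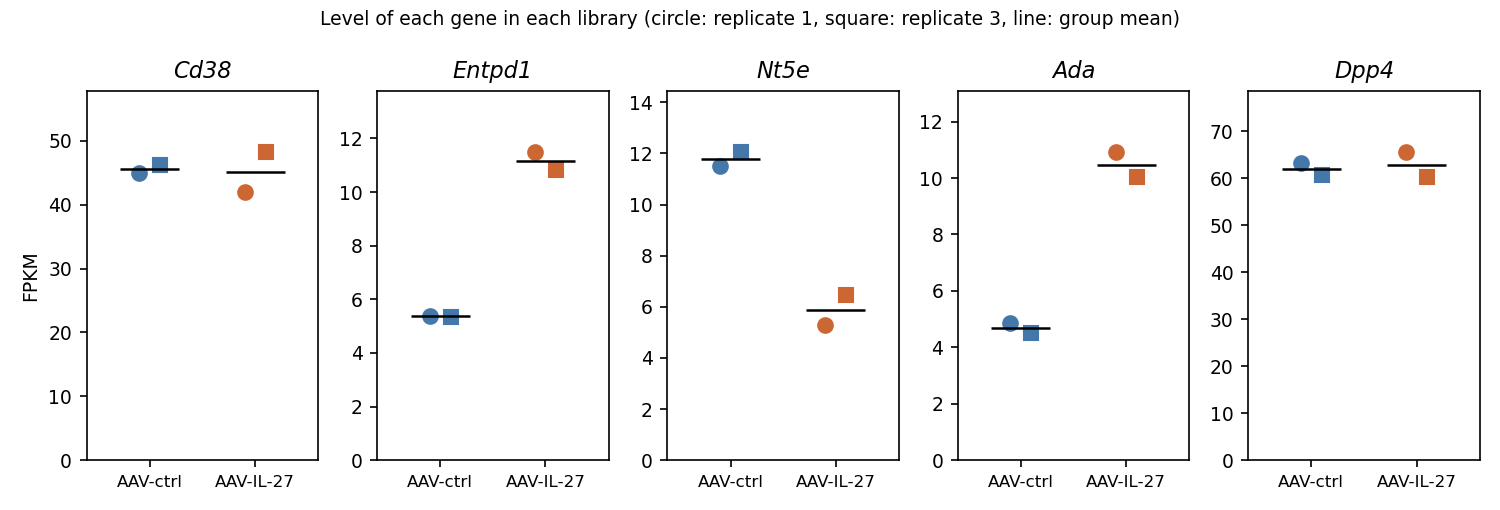
Level in FPKM (reads scaled for transcript length and library depth, vertical axes from 0) of the 5 genes in each of the 4 libraries, with AAV-ctrl in blue, AAV-IL-27 in orange, circles for replicate 1, squares for replicate 3 and lines for group means. Entpd1 and Ada lie higher in both AAV-IL-27 libraries, Nt5e lies lower in both, and the groups of Cd38 and Dpp4 overlap.

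Entpd1, which encodes the ecto-ATPase that opens the pathway, had expected counts of 786 and 745 in I1 and I3 and of 361 and 354 in C1 and C3. In FPKM, a level scaled for transcript length and library depth, these were 11.5 and 10.8 against 5.39 and 5.33. Both AAV-IL-27 libraries were about equally high, and the AAV-ctrl libraries nearly coincided. The log2 fold change was 1.12 ± 0.074 (SE, n = 2 per group, edgeR adjusted p = 4.86e-06), and 7.36% of the tested genes had a larger change in either direction. The gene (NCBI Gene 12495) lies on chromosome 19, 40612366 to 40741602, in GRCm38.p6.

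Nt5e, which encodes the enzyme of the next step from AMP to adenosine, went the other way. Its expected counts were 306 and 377 in I1 and I3 and 656 and 684 in AAV-ctrl, or 5.27 and 6.46 FPKM against 11.5 and 12.1. The highest AAV-IL-27 library lay far below the lowest AAV-ctrl library, although the AAV-IL-27 libraries differed between themselves more than for the other 4 genes, by 0.29 in log2 CPM (counts scaled for library depth). Nt5e fell by 0.96 ± 0.099 on the log2 scale (SE, n = 2 per group, edgeR adjusted p = 9.40e-05), and 9.12% of the tested genes changed more. It was the single gene of the set that fell. It (NCBI Gene 23959) spans 88327609 to 88372089 on chromosome 9.

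The opposite moves turned the order of the CD39 and CD73 transcripts around. The ratio of Entpd1 to Nt5e FPKM was 2.18 and 1.67 in I1 and I3, against 0.468 and 0.442 in C1 and C3. Entpd1 was therefore the more abundant of the pair in each AAV-IL-27 library, and Nt5e in each AAV-ctrl library.

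Ada, whose product removes adenosine, rose with Entpd1. Its expected counts were 298 and 275 in I1 and I3 and 130 and 120 in AAV-ctrl, which were 10.9 and 10.03 FPKM against 4.85 and 4.50. Again both AAV-IL-27 libraries lay above both AAV-ctrl libraries, with little spread within a group. The log2 fold change was 1.21 ± 0.12 (SE, n = 2 per group, edgeR adjusted p = 6.58e-05), and 6.43% of the tested genes changed more. The ratio of Ada to Nt5e FPKM was 2.07 and 1.55 in AAV-IL-27, against 0.421 and 0.373 in AAV-ctrl, whereas that of Entpd1 to Ada stayed between 1.05 and 1.18 in the 4 libraries. Ada (NCBI Gene 11486) lies on chromosome 2, 163726571 to 163750239.

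Cd38, the NAD glycohydrolase of the set, was found at 41.9 and 48.2 FPKM in I1 and I3 and at 44.9 and 46.3 in AAV-ctrl. The AAV-IL-27 libraries were the lowest and the highest of the 4, so both AAV-ctrl libraries fell between them. Its expected counts were 2046, 2364, 2149 and 2207 in the same order. The log2 fold change was 0.034 ± 0.068 (SE, n = 2 per group, edgeR adjusted p = 0.728), with a 95% confidence interval of -0.12 to 0.19, that is 0.92-fold to 1.14-fold. Cd38 (NCBI Gene 12494, chromosome 5, 43868809 to 43912374) overlaps the antisense gene Gm16015 in the GENCODE annotation.

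Dpp4, which encodes the peptidase CD26, stood at 65.6 and 60.3 FPKM in I1 and I3 and at 63.4 and 60.7 in AAV-ctrl. Both replicate 1 libraries were higher than both replicate 3 libraries, whichever virus the mice had received. With expected counts of 4711, 4398, 4541 and 4359 it was the most deeply covered gene of the set, and its log2 fold change was 0.050 ± 0.053 (SE, n = 2 per group, edgeR adjusted p = 0.493), with a 95% confidence interval of -0.069 to 0.17 (0.953-fold to 1.13-fold). Dpp4 (NCBI Gene 13482, chromosome 2, 62330073 to 62412315) overlaps an antisense gene, Gm13561. The sources used here do not say if strand was used in counting, so for Cd38 and Dpp4 reads from the antisense partner cannot be told apart. In the same annotation Entpd1 overlaps 3 genes on its own strand (Gm16027, Gm8783 and AC166063.1), and Cd38 overlaps Gm16014 on its own strand. Strand could not separate reads of these.

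Per length, Dpp4 was the most abundant of the 5 transcripts in every library and Cd38 came next. Mean FPKM over the 4 libraries exceeded that of 90.9% of the tested genes for Dpp4 and of 86.5% for Cd38. Entpd1, Nt5e and Ada lay near the middle, above 43.0%, 44.6% and 41.1% of the tested genes. In AAV-ctrl the order below Cd38 was Nt5e at 11.8 ± 0.382 FPKM (mean ± SD, n = 2), Entpd1 at 5.36 ± 0.0424 and Ada at 4.68 ± 0.248. In AAV-IL-27 it was Entpd1 at 11.2 ± 0.481, Ada at 10.5 ± 0.629 and Nt5e at 5.87 ± 0.842, with Entpd1 and Ada overlapping, since Entpd1 in replicate 3 lay below Ada in replicate 1.

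**Figure D2:**
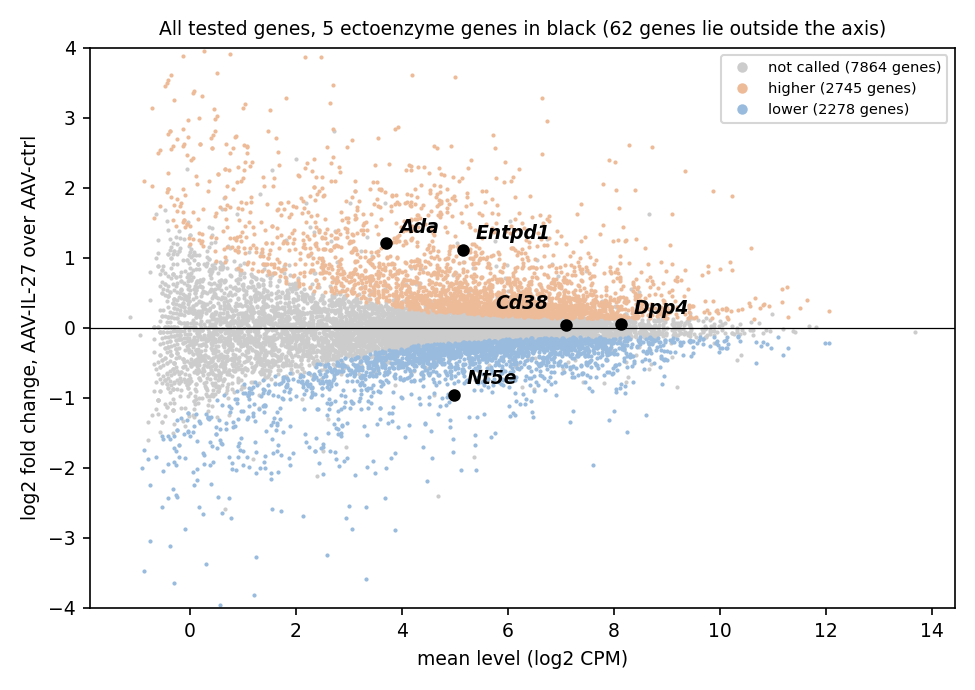
Log2 fold change of AAV-IL-27 over AAV-ctrl (vertical axis) against mean log2 CPM (horizontal axis) for the tested genes, with genes past the threshold in orange (2745 higher) and blue (2278 lower), genes not past it in grey and the 5 ectoenzyme genes in black. Ada and Entpd1 lie above 1, Nt5e near -1, and Cd38 and Dpp4, at higher levels, near 0; 62 genes lie outside the vertical axis.

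The regions before the RefSeq start sites of the genes are described by their letters, and a link with the changes was not tested. RefSeq tables of GRCm38.p6 gave 6 windows for the 5 genes, with separate start sites for Entpd1. Each window was searched over the 250 bases before the start, on both strands, for TTCNNNGAA, the palindrome bound by STAT factors, for a 10-base core of the interferon-stimulated response element and for the GC box GGGCGG. The last 120 bases before the start are printed 5′ to 3′ on the gene's strand, with matches in capitals. Windows with a match and the first Entpd1 window are printed.
Ada, chr2:163750240-163750359, minus strand: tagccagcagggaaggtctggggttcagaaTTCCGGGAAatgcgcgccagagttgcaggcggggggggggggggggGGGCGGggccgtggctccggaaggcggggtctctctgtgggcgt
Entpd1, first start, chr19:40612246-40612365, plus strand: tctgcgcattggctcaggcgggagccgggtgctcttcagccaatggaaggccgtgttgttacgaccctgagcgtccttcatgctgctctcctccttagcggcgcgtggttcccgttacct
Nt5e, chr9:88327489-88327608, plus strand: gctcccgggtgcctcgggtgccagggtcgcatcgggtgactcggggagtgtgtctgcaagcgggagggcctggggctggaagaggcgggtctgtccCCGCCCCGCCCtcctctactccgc
Dpp4, chr2:62412232-62412351, minus strand: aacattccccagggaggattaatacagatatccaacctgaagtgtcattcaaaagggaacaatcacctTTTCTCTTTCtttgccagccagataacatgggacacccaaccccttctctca
Ada held the STAT palindrome once, as TTCCGGGAA, 90 to 82 bases before its start, where 7.02% of all 32851 windows and 6.13% of the windows of tested genes held at least 1. Dpp4 held the interferon response core once, 52 to 43 bases before the start site of its window (2.98% of all windows and 2.82% of those of tested genes). The Dpp4 window begins at 62412232, whereas the gene span given above runs to 62412315. Part of that window, with this match, therefore lies inside the stated span of the gene. Nt5e held the GC box 4 times and Ada once (at least 1 in 32.7% of all windows and 54.8% of those of tested genes), and some of the matches in Nt5e overlap. Those in Nt5e at 24 to 19 and 19 to 14 bases before the start are printed. Those at 223 to 218 and 219 to 214 lie beyond the printed bases. No match to any of these letters was found in the Cd38 window or in either Entpd1 window. GC content was 72.0% for Nt5e, 67.2% for Ada and 62.4% for the first Entpd1 start, against 47.2% for the second Entpd1 start, 48.8% for Cd38 and 43.6% for Dpp4, with a median of 52.4% over all windows. These matches describe the letters of the windows only.

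For each gene the 3 tested genes with the most similar profile were taken, by Euclidean distance between centred log2 CPM over the 4 libraries, among genes within 2 log2 CPM of its level. For Entpd1 these were Plin2, a lipid droplet protein (distance 0.0279), Ezh2, a histone methyltransferase (0.0282), and Mthfd2, a mitochondrial folate enzyme (0.0588). For Ada they were the mitotic kinase Aurka (0.0498), the G protein subunit Gnb4 (0.0789) and the centromeric histone Cenpa (0.0842). The nearest to Nt5e were Inafm1 (0.0498), Sh3bp5 (0.129) and Tctn1 (0.136). Dnaja1, Btbd1 and Mis12 were nearest to Cd38 (0.0155 to 0.0244), and Slain1, Slc7a1 and Ints7 to Dpp4 (0.0165 to 0.0206). With 4 libraries, many of the 3335 to 7492 candidates lie close to any profile.

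The wider pathways were described by 8 gene lists, which held 80 tested genes. Of these, 27 rose (33.8%), 11 fell (13.8%) and 42 did not pass, against 21.3% and 17.7% of all tested genes. The same shares of all tested genes stand beside the counts of each list below. With T cell list scaling 12 of the 80 rose and 18 fell, while over all tested genes 1276 were higher and 3685 lower. The balance thus moved towards lower calls in both. Over all genes 2362 were higher and 2979 lower with upper-quartile factors, and 2363 and 2975 with library size alone. Of the 80, 25 rose and 16 fell with either scaling. Without C1, 15 rose and 8 fell, and without C3, 18 rose and 7 fell.

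Receptors for adenosine and nucleotides came first. Among the adenosine receptors 1 of 3 tested rose and none fell (median log2 fold change 0.55, against -0.0053 for all tested genes). Adora2a, the main adenosine receptor of T cells, was at 11.4 and 11.1 FPKM in I1 and I3 and at 9.53 and 9.71 in AAV-ctrl. Its rise was small at 0.33 ± 0.081 (SE, edgeR adjusted p = 0.0109), and the call was lost without C1 (adjusted p = 0.108) or C3 (0.0514), by DESeq2 (0.115) or when scaled to the T cell list (0.478). Adora2b, at 0.31 to 0.57 FPKM, and Adora3, at 0.71 to 1.88 FPKM, did not pass (adjusted p = 0.355 and 0.102). Adora3 was highest in I1 and passed without I3 (log2 fold change 1.35, adjusted p = 0.0057), so that 2 receptors then rose. Adora1 had at most 1 count in any library and was not tested.

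Of 14 tested ATP and nucleotide receptors and release genes, 5 rose and 9 did not pass (median 0.16). P2rx7, the ATP-gated channel that also opens after NAD-dependent ADP-ribosylation, was at 6.14 and 6.02 FPKM in AAV-IL-27 and 4.00 and 4.09 in AAV-ctrl (0.78 ± 0.084, edgeR adjusted p = 0.000107). Panx1, a channel that releases ATP, rose by 0.41 ± 0.068 (adjusted p = 0.00134), but missed the threshold with T cell list scaling (0.191). P2ry1, P2ry6 and P2ry14 also passed, with adjusted p of 0.0441, 0.0353 and 0.0291, and each lost the call when single libraries were left out. For P2ry1 this held without I1 (adjusted p = 0.0947), I3 (0.157) or C1 (0.315). P2ry6 lost it without I1 (0.170), C1 (0.235) or C3 (0.0771), and P2ry14 without the same libraries (0.101, 0.192 and 0.136). The number of the list that rose was 2 without I1, without C1 and by DESeq2, and 3 with T cell list scaling, where 4 fell; with upper-quartile factors and with library size alone 2 fell.

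Other enzymes that cleave nucleotides outside cells were mixed, with 2 of 4 tested rising, 1 falling and 1 not passing (median 0.70). Enpp1, which cleaves ATP directly to AMP, was at 4.92 and 5.84 FPKM in AAV-IL-27 and 3.95 and 3.59 in AAV-ctrl (0.56 ± 0.098, edgeR adjusted p = 0.00207). Alpl, an alkaline phosphatase that can also form adenosine, was at 3.34 and 5.33 FPKM against 2.16 and 2.75. It rose by 0.84 ± 0.26 (adjusted p = 0.0394) but did not pass without I3 (0.118), C1 (0.234) or C3 (0.103). Acpp, an acid phosphatase with ecto-5′-nucleotidase activity, fell together with Nt5e, from 8.25 and 8.41 FPKM in AAV-ctrl to 5.45 and 5.57 (-0.57 ± 0.073, adjusted p = 0.000333). Both AMP-cleaving ectoenzymes that fell had groups without overlap, as had 71.5% of all tested genes. Of the 5 relatives of CD39 that act inside cells, Entpd5 fell by 0.30 ± 0.059 (adjusted p = 0.00338, but 0.0601 without C3) and 4 did not pass (median -0.049). Entpd4 and Entpd4b, which are near-copies whose reads are split by estimation, are uncertain.

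Adenosine transport and the enzymes that handle adenosine and AMP inside cells held 22 tested genes, of which 10 rose, 3 fell and 9 did not pass (median 0.26). Slc29a1, the equilibrative nucleoside transporter, was at 19.3 and 20.1 FPKM in AAV-IL-27 and 13.4 and 13.3 in AAV-ctrl (0.60 ± 0.071, edgeR adjusted p = 0.000200). Pnp, which acts on inosine in the step after adenosine deaminase, rose by 0.58 ± 0.070 (adjusted p = 0.000221), from 14.5 and 13.6 to 19.6 and 21.1 FPKM. Its near-copy Pnp2, uncertain for that reason, passed at 0.0334 but not without I1 (0.0984), C1 (0.0968) or C3 (0.218). Ampd1, an AMP deaminase, fell from 6.67 and 7.13 FPKM in AAV-ctrl to 3.07 and 3.06 (-1.13 ± 0.16, adjusted p = 0.000515). Ampd3, another AMP deaminase, fell by 0.48 ± 0.11 (adjusted p = 0.00749, but 0.106 without C3).

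Adk and Slc28a2 were named after their values were seen. Adk, the kinase that returns adenosine to AMP, rose by 0.39 ± 0.090 (edgeR adjusted p = 0.00766), but not without C1 (0.0828) or C3 (0.0537), by DESeq2 (0.0812) or scaled to the T cell list (0.291). Slc28a2, a concentrative nucleoside transporter, was at 94.7 and 91.5 FPKM in AAV-ctrl and fell by 0.20 ± 0.046 (adjusted p = 0.00719), but not without C1 (0.0984) or C3 (0.0579). Of the 22 genes, 6 rose without C1, 5 rose and 1 fell without C3, and 2 rose when scaled to the T cell list.

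Around Cd38, the list of other NAD ectoenzymes and members of their families gave 1 rise, 1 fall and 2 genes not passing among 4 tested (median 0.48). Bst1, the paralogue of Cd38 also known as CD157, was at 2.39 and 2.80 FPKM in AAV-IL-27 and 0.87 and 1.22 in AAV-ctrl. Unlike Cd38 its groups did not overlap, and it rose by 1.36 ± 0.23 (edgeR adjusted p = 0.00170), from a low level. The difference between the changes of Bst1 and Cd38 was not tested. Art4, a member of the ADP-ribosyltransferase family, fell from 4.00 and 4.57 to 0.96 and 1.45 FPKM (-1.78 ± 0.21, adjusted p = 0.000219). Art2b, the ADP-ribosyltransferase of mouse T cells that modifies P2RX7 and competes with CD38 for NAD, was far more abundant, at 73.7 and 68.7 FPKM in AAV-IL-27 and 52.0 and 63.9 in AAV-ctrl. Named after its values were seen, it did not pass (0.30 ± 0.099, adjusted p = 0.0577) but passed without C3 (0.00922) and by DESeq2 (0.0137), with which 2 genes of the list rose.

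Of 20 tested genes that make or use NAD, 4 rose, 5 fell and 11 did not pass (median -0.030). Over all tested genes 21.3% were higher and 17.7% lower, so these counts do not set the list apart. Nampt, the rate-limiting enzyme of NAD salvage, was at 27.8 and 26.9 FPKM in AAV-IL-27 and 16.2 and 14.9 in AAV-ctrl (0.87 ± 0.058, edgeR adjusted p = 5.45e-06). Trpm2, a calcium channel opened by ADP-ribose, rose by 0.74 ± 0.093 (adjusted p = 0.000312). Nmnat2, which completes NAD synthesis, rose by 0.64 ± 0.16 (adjusted p = 0.0112), but not without I1 (0.0504) or C1 (0.108). Qprt, an enzyme of NAD synthesis from tryptophan, fell by 0.76 ± 0.19 (adjusted p = 0.0127), and did not pass without C1 (0.105) or C3 (0.0733). Nmnat3, a relative of Nmnat2, passed lower at 0.0447 but not without I3 (0.172), C1 (0.280) or C3 (0.107). In this list 2 genes rose without C1, and 3 fell without C1, without C3 and by DESeq2.

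Around Dpp4, a list of relatives of CD26 and of genes taken as its partners held 8 tested genes. Of these, 4 rose and 4 did not pass (median 0.19). Adgrg1, an adhesion receptor of cytotoxic lymphocytes and not a peptidase, was at 3.84 and 4.09 FPKM in AAV-IL-27 and 0.46 and 0.84 in AAV-ctrl (2.68 ± 0.23, edgeR adjusted p = 3.79e-05). It was the gene of the list that still rose when scaled to the T cell list (2.49). Dpp3, a cytosolic dipeptidyl peptidase, rose by 0.37 ± 0.060 (adjusted p = 0.00122) and Ptprc, the phosphatase CD45, by 0.28 ± 0.045 (adjusted p = 0.00133), though neither passed when scaled to the T cell list (0.289 and 0.603), where 1 of the 8 rose and 1 fell. Prep, prolyl endopeptidase, passed at 0.0156 but not without I3 (0.0727), C1 (0.110) or C3 (0.105).

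**Figure D3:**
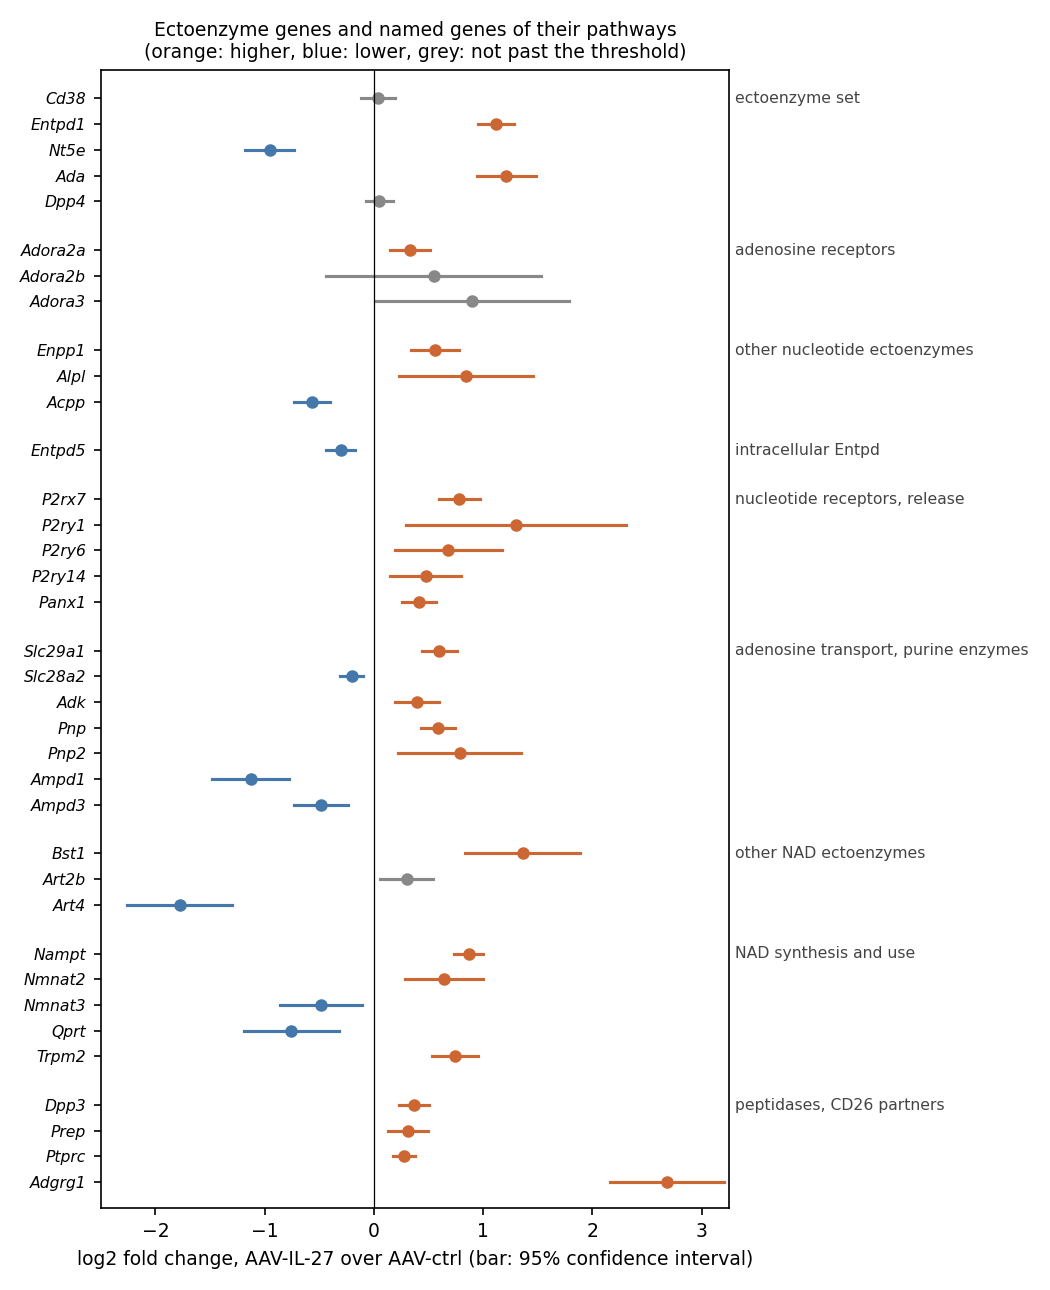
Log2 fold change of AAV-IL-27 over AAV-ctrl (horizontal axis) with 95% confidence intervals for the 5 ectoenzyme genes and the named genes of the 8 lists, in orange where higher, blue where lower and grey where not past the threshold. Nt5e, Acpp, Ampd1 and Art4 lie to the left of 0, while Entpd1, Ada, Bst1, P2rx7 and Nampt lie to the right.

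The cell preparations were not of 1 cell type. Cd8a (321 to 408 FPKM) and Cd8b1 (546 to 626) were high and Cd4 low (8.21 to 10.1), but 10 B cell markers summed to 969 and 1338 FPKM in I1 and I3 and to 2080 and 1835 in AAV-ctrl. B cells can carry CD73, CD39 and CD38, so these values stand beside those of the set. The B cell sum and Nt5e were both lower in AAV-IL-27, and within AAV-IL-27 both were lower in replicate 1, while within AAV-ctrl the order differed. Of the B cell markers 4 of 10 fell and none rose, with 9 falling without I1, 10 without I3 and 10 when scaled to the T cell list. The part of B cells in the values of Nt5e and Cd38 was not tested.

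Other lists moved in several directions, and those of the cell cycle, of neutrophils and of basophils and mast cells rose with Entpd1 and Ada. Beside the counts of these lists and of B cells, 21.3% of all tested genes rose and 17.7% fell. All 10 cell cycle genes rose, summing to 328 and 335 FPKM in I1 and I3 and 84.6 and 81.7 in AAV-ctrl. Of 11 neutrophil markers 10 rose (1032 and 1690 FPKM against 37.6 and 27.0), although 3 rose without C1 and 2 without C3, and Ly6g had 0 counts in C1. All 5 basophil and mast cell markers rose (89.1 and 94.7 FPKM against 7.03 and 6.67), and 6 of 7 natural killer markers fell while Gzma rose. Plasma cell markers summed to 279 and 602 FPKM in AAV-IL-27 and 175 and 217 in AAV-ctrl. Within each group the library with the higher sum, replicate 3, also had the higher Cd38. Across groups the order differed, since I1 exceeded both AAV-ctrl libraries in the sum but had the lowest Cd38 (41.9 FPKM). Of 6 tested plasma cell markers 1 rose, with 5 rising without I1, 2 without I3 and none without C1 or C3. Regulatory T cells are known for CD39 and CD73, and the list of their markers and Cd4 summed to 103 and 92.5 FPKM in I1 and I3 against 55.8 and 54.4 in C1 and C3. Of its 8 tested genes 3 rose (Ctla4, Ikzf2 and Nrp1), 2 fell (Gpr83 and Foxp3) and 3 did not pass. Foxp3, the defining factor, was low throughout, at 0.93 and 1.22 FPKM in AAV-IL-27 and 1.84 and 1.57 in AAV-ctrl. Its edgeR adjusted p of 0.0405 went to 0.154 without I1, 0.253 without C1, 0.106 without C3 and 0.188 by DESeq2, each of which left 1 gene of the list falling. Macrophage and monocyte markers summed to 1201 and 1070 FPKM against 700 and 611, with 2 of 12 rising and 5 falling. Their median log2 fold change was -1.06, so the higher sum did not reflect the typical marker of the list. For that list 4 rose without I3 and by DESeq2, 1 rose without C1 or without C3, and 3 fell without I1. Among 17 T cell markers 9 rose and 2 fell, with 4 rising without C1 and 5 without C3, and none falling without either. Of the T cell markers 6 rose with upper-quartile factors or with library size alone, and 2 when scaled to that list itself. In each case 2 fell. The part of the cells of all these lists in the values of the 5 genes was not tested. Nor was it tested for the named pathway genes, Bst1, Alpl, Nampt and Trpm2 among them.

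**Figure D4:**
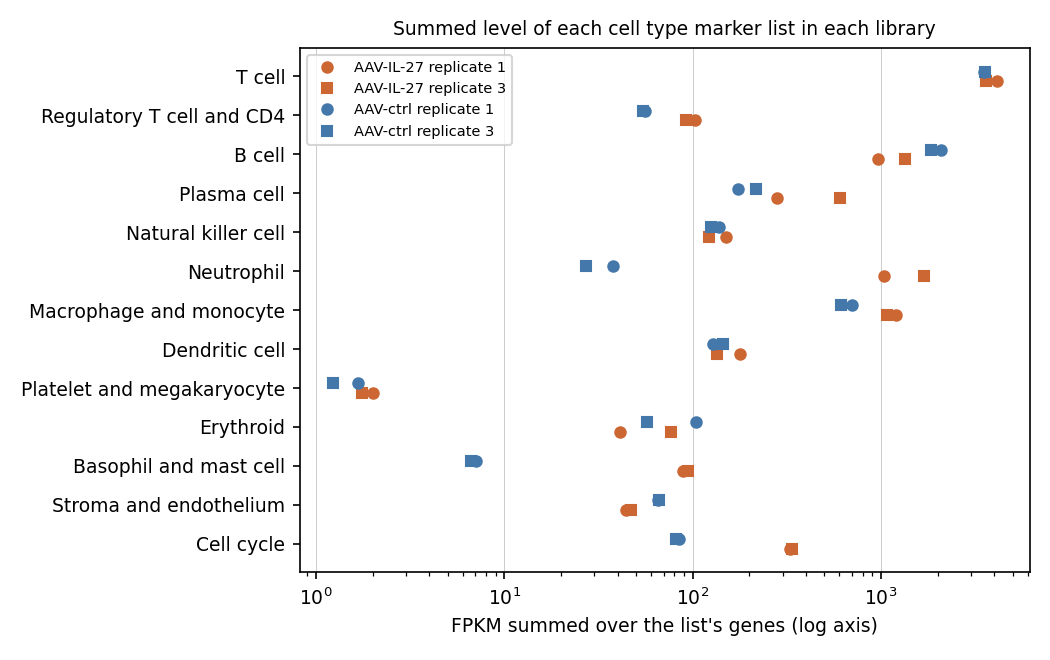
FPKM summed over each of 13 marker lists (horizontal log axis) in each library, with AAV-IL-27 in orange, AAV-ctrl in blue, circles for replicate 1 and squares for replicate 3. Neutrophil, basophil and cell cycle sums are higher in both AAV-IL-27 libraries, and the B cell sum is lower in both.

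Scaled to the T cell list, Entpd1 rose by 0.91 (edgeR adjusted p = 9.04e-10) and Ada by 1.01 (adjusted p = 3.35e-07), and Nt5e stood at -1.15 (adjusted p = 8.73e-15). The 3 calls held under each of the 14 alternative settings, among them the 4 fits that left out 1 library. Over those 4 fits the log2 fold change was 1.07 to 1.16 for Entpd1, 1.15 to 1.27 for Ada and -1.11 to -0.81 for Nt5e, and the highest adjusted p was 0.000564, 0.00361 and 0.00497. Cd38 and Dpp4 passed in none of the 14, with adjusted p from 0.0819 to 0.954 and from 0.142 to 0.9999.

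**Figure D5:**
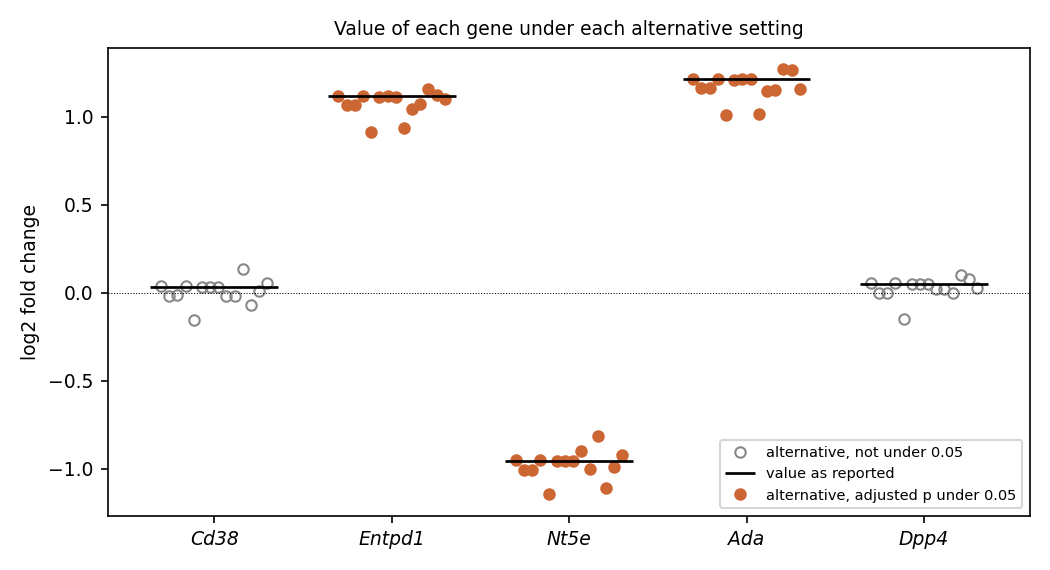
Log2 fold change of AAV-IL-27 over AAV-ctrl (vertical axis) for each of the 5 genes under each of 14 alternative settings (points, filled where the adjusted p was under 0.05), with the value as reported as a line. Points of Entpd1, Ada and Nt5e keep their side of 0 and are filled, and those of Cd38 and Dpp4 lie on both sides of 0 and are open.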

How the data were processed

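RNA of splenic T cells from 4 mice was sequenced on DNA nanoballs, per the labels. Expected counts were deposited by the authors for every gene, of which 64.9% to 65.1% were whole numbers, as were all counts of Entpd1, Nt5e and Ada. The authors also deposited a value taken here as FPKM, since its header names no unit and its ratio to the count moved inversely with the count total. RSEM 1.2.12, HISAT2 2.0.4, DESeq2 1.4.5, Bowtie2 2.2.5 and the build GRCm38.p6 are named, with no roles, in the submitters' processing notes. The deposited group averages were not used.

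Counts were rounded (15742476 to 16182426 per library), filtered with filterByExpr, scaled by TMM and compared with edgeR 4.0.16 (quasi-likelihood, robust, two-sided, Benjamini-Hochberg over 12887 genes) in R 4.3.3. SE is the log2 fold change divided by the square root of F. The code was tested on simulated data. Alternatives were DESeq2 1.42.0, limma 3.58.1 on log2(FPKM + 1) and log2(FPKM + 0.1), other scalings and filters, a replicate block and single libraries left out. Coordinates and promoters are from RefSeq tables of GRCm38.p6, which matched 16921 of 17039 genes.

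The 5 genes and the lists were chosen with earlier results of these data known. Named genes were the 5, up to 5 changed genes with the largest change per list, the adenosine receptors, Bst1 and the 3 nearest profiles per gene. Adk, Slc28a2, Art2b, the GC box and single marker levels were chosen after values were seen.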

Additional observations from a re-analysis of the deposited data

How the results depend on the processing

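Entpd1, Nt5e and Ada kept their direction and their call under all 14 alternatives. Cd38 and Dpp4 were never called, and their values, near 0, changed sign: with upper-quartile factors to -0.017 for Cd38 and -0.00071 for Dpp4, with library size alone to -0.016 and -1.034e-05, and scaled to the T cell list to -0.16 and -0.15. With limma, Cd38 was at -0.019 on log2(FPKM + 1) and -0.020 on log2(FPKM + 0.1). With 1 library left out, where the lone library is assumed to vary like the others, Cd38 ranged from -0.072 to 0.13 and Dpp4 from -0.0021 to 0.10. The cause was not tested. Over all genes DESeq2 called 3243, of which 1239 lower, and scaling to the T cell list gave 1276 higher and 3685 lower. Leaving out 1 library gave 2635 to 4886 calls, 1646 to 2632 higher and 989 to 2254 lower, where fewer libraries were fitted. The replicate numbers give no sign of pairing (correlation over genes of the replicate differences -0.00071), and with the replicate block the calls were 2739 higher and 2232 lower, with Entpd1 at 1.11, Nt5e at -0.96 and Ada at 1.21. The block called Entpd4 higher (adjusted p = 0.0135, edgeR) and Entpd4b lower (0.00405), against 0.570 and 0.563 without it, and no longer called P2ry6 (0.0611) or Foxp3 (0.0531). The intervals given, from 2 mice per group, leave room for small changes of Cd38 or Dpp4 in either direction.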
